A study of Mus musculus with 6 samples.

Results

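Chemokines of the mouse uterus are described here through 8 genes, namely Cxcl12, Cxcl14, Cx3cl1, Ccl8, Ccl11, Cxcl1, Ccl2 and Ccl7. Every probe set whose platform annotation named 1 of these genes, and no other, was taken. The 8 are among 8251 genes with such a probe set, and they gave 12 probe sets of the 12422 that were not controls. RNA came from whole uterine horns of 129/SvImJ wildtype females, an inbred strain, aged 10 to 16 weeks, and all of them had been ovariectomized 14 days before. Uninjected mice gave the 0 h array, and mice given progesterone subcutaneously (0.2 mg in 0.1 mL of sesame oil) gave 1 array each at 6, 12, 15, 18 and 24 h. Each array held 1 pool of 8 horns from 4 mice, so no time has a replicate. The sources used here describe no array of mice given oil alone, so progesterone, the injection and the oil cannot be told apart. All differences from 0 h share the same 0 h array.

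Chemokines are small secreted proteins that bind G protein-coupled receptors on leukocytes and guide where those cells move. They are classed by the spacing of their first cysteines into CXC, CC and CX3C types, a further class keeps fewer cysteines, and atypical receptors such as Ackr3 remove them without classical signalling. In the uterus, chemokines of stroma, epithelium and endothelium are known for drawing in macrophages, eosinophils and uterine natural killer cells, and ovarian steroids affect how many of these cells are present.

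Expression was given as log2 values, 1 per probe set and array. No value was below 5.39 (a linear level of 42.0), and 21.1% to 22.5% of each array sat exactly there, so that such a value is an upper bound on the level. Tests were run on the 7731 probe sets above the 40th percentile of all values (6.60) on at least 2 arrays. Of the 12 chemokine probe sets, 8 passed, for Cxcl12 (3), Cx3cl1 (2), Cxcl14, Ccl8 and Ccl11, and 4 did not, for Cxcl1 (2), Ccl2 and Ccl7. The array median lay between 7.12 and 7.22. Pearson's r between progesterone arrays was 0.979 to 0.994, and between each of them and the 0 h array 0.971 to 0.977, over all probe sets. The labelled tissue was checked against 8 genes of the uterus, 7 of them on the array. The steroid receptor genes Pgr (7.94 to 8.46) and Esr1 (8.07 to 8.77) and the homeobox genes Hoxa10, Hoxa11 and Msx1 (9.47 to 11.2) were above the 40th percentile on all 6 arrays, and Wnt7a, of uterine epithelium, was at the lower limit on all 6. Esr1 fell by 0.61 ± 0.13 against 0 h on the probe set used (limma, adjusted p = 0.041), a call lost without 12, 15 or 18 h (adjusted p up to 0.11). The other analysed Esr1 probe sets did not pass, with differences of 0.20, 0.00 and -0.20 (adjusted p of 0.59 to 0.99). In whole tissue, fewer cells of a type and less RNA per cell cannot be told apart.

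**Figure D1:**
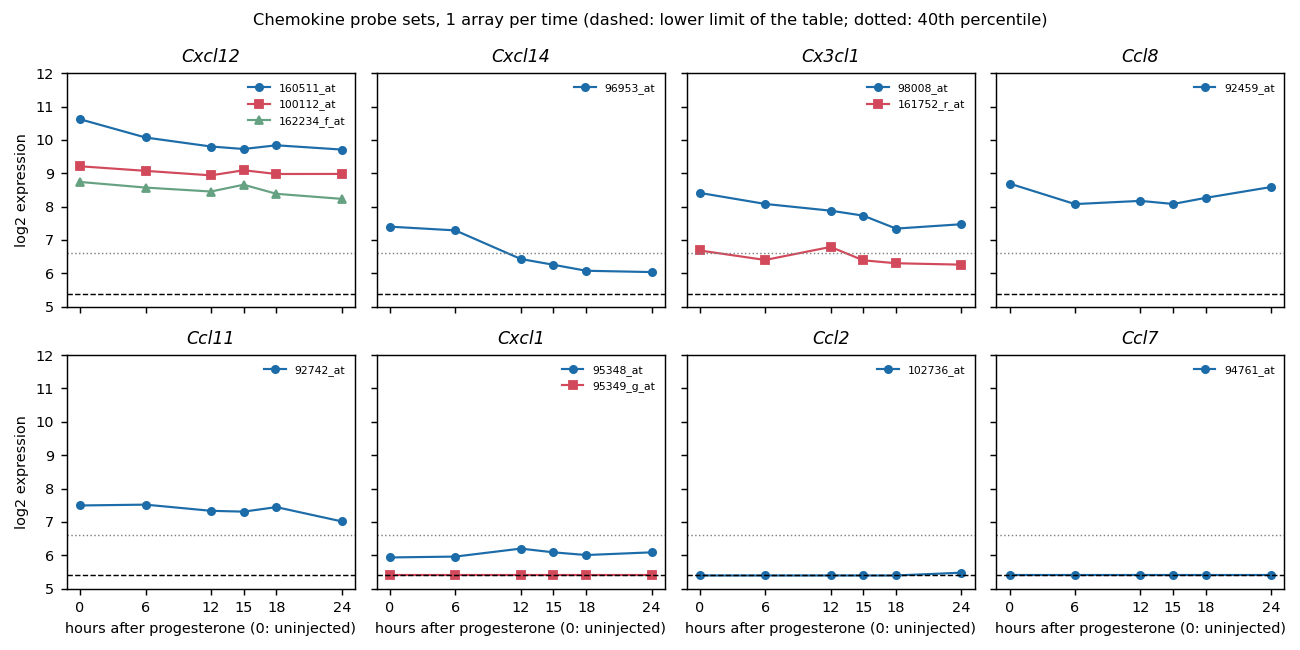
Log2 expression (y axis) of the 12 chemokine probe sets against hours after progesterone (x axis, 0 is uninjected), 1 panel per gene and 1 point per array. The dashed line is the lower limit of the table (5.39) and the dotted line the 40th percentile of all values (6.60). Cxcl12, Cxcl14 and Cx3cl1 lie lower at 24 h than at 0 h, while Ccl2, Ccl7 and 1 probe set of Cxcl1 lie at or next to the limit.

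The 250 bases before the annotated start are shown for Cxcl12 and Cx3cl1, on whose values the results turn, with 30 bases of the Cxcl14 window and 120 of the Cxcl1 window for their motif matches. RefSeq promoters (GRCm38.p6) were matched for 5 of the 8 genes, including Ccl8. Capitals mark matches to the motifs searched on both strands, which were GGG, any 3 bases, T, any base and CC for NF-kappaB, TGTNCT for the half-site of the progesterone and glucocorticoid receptors, TGANTCA for AP-1, and TATAAA. The Cxcl12 window is chr6:117168285-117168534 on the plus strand and held no match.
Cxcl12: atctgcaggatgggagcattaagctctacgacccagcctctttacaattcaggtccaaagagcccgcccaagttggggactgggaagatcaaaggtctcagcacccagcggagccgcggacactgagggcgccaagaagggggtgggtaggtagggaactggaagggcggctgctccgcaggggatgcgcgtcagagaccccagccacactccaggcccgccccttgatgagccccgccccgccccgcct
The Cx3cl1 window is chr8:94771930-94772179 on the plus strand and ends in TATAAA, its only match.
Cx3cl1: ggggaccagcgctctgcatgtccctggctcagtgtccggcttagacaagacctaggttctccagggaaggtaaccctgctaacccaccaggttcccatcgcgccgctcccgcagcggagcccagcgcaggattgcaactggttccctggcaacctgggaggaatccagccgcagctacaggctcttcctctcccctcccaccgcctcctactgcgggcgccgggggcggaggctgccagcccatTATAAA
The Cxcl14 window is shown for chr13:56296727-56296756 on the minus strand, around 1 half-site at -193 to -188 from the start used. That start lies 260 bases inside the outermost annotated start of the gene.
Cxcl14: agtaaacctgtgTGTTCTgagaagtgtcca
The Cxcl1 window is shown for chr5:90891125-90891244 on the plus strand. It held NF-kappaB matches at -89 to -80, -71 to -62 and -70 to -61, of which the last 2 overlap on opposite strands, and half-sites at -107 to -102 and -79 to -74.
Cxcl1: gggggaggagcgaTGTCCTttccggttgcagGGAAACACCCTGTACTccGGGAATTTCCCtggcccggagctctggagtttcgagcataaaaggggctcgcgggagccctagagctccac
Ccl8 had only TATAAA, at -32 to -27. The motifs occurred in 14.9% (NF-kappaB), 44.7% (half-site), 6.75% (AP-1) and 12.4% (TATAAA) of all 32851 annotated windows of 250 bases. CG pairs numbered 14 in the windows of both Cxcl12 and Cx3cl1, 16 in that of Cxcl14, 10 in that of Cxcl1 and 1 in that of Ccl8, against a median of 6 over all windows. A match is a stretch of letters only, and binding was not measured.

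Of the CXC ligands, Cxcl12 attracts cells that carry the receptor Cxcr4 and is made by stromal cells and endothelium. Its probe set 160511_at read 10.62 at 0 h and then 10.07, 9.80, 9.73, 9.84 and 9.71 at 6, 12, 15, 18 and 24 h. The 0 h array was the highest, the 6 h array lay between it and the later ones, and the arrays from 12 to 24 h differed by little. On the linear scale the 6 h level was 68.4% of that at 0 h, and the levels from 12 to 24 h were 53.2% to 58.2% of it. Cxcl12 fell on this probe set, with a mean of the 5 progesterone arrays minus 0 h of -0.79 ± 0.16 (SE; limma over all probe sets, adjusted p = 0.041). The adjusted p was 0.003 without 6 h and 0.11, 0.10, 0.087 and 0.053 without 12, 15, 18 or 24 h, and it was 0.057 with quantile normalization and 0.053 with arrays centred on their medians. This fit takes its error from the scatter of the progesterone times and assumes that the lone 0 h array varies like them.

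The other Cxcl12 probe sets also read highest at 0 h. Probe set 100112_at had 9.21, 9.07, 8.94, 9.09, 8.98 and 8.98 at 0, 6, 12, 15, 18 and 24 h, and its difference of -0.20 ± 0.13 did not pass (adjusted p = 0.47). Probe set 162234_f_at had 8.74, 8.57, 8.45, 8.66, 8.38 and 8.23 at the same times, with a difference of -0.28 ± 0.17 (adjusted p = 0.42). All 3 probe sets therefore put the 0 h array on top, and they differ in size, with 24 h levels at 53.2%, 85.3% and 70.4% of 0 h. The f in the name of the last marks probes that Affymetrix judged able to bind related sequences.

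Cxcl14, a CXC ligand made by epithelium and known in human endometrium for attracting uterine natural killer cells, stepped down between 6 and 12 h. It read 7.40 at 0 h and 7.29 at 6 h, and then 6.43, 6.25, 6.08 and 6.04 at 12, 15, 18 and 24 h. The first 2 arrays lay together and the last 4 lay apart from them, with a drop of -0.86 from 6 to 12 h and at most -0.18 between neighbouring times after that. No value was at the lower limit, but those from 12 h on were below the 40th percentile, so that Cxcl14 was tested only through the 0 and 6 h arrays, where it is high. That filter favours a fall, and with the filter on all 6 arrays Cxcl14 was not tested. The 24 h level was 38.9% of that at 0 h. Cxcl14 fell over 0 to 24 h by 1.61 ± 0.26 on the log2 scale per 24 h (limma slope over hours, adjusted p = 0.047), and it ranked 37 of 7731 probe sets by p in that fit.

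Over the progesterone arrays alone, which leave the 0 h array out, the slope of Cxcl14 was -1.64 ± 0.39 per 24 h (limma, adjusted p = 0.052). The call over 0 to 24 h was kept without 24 h (adjusted p = 0.027) and lost without 0, 6, 12, 15 or 18 h, with adjusted p of 0.052, 0.087, 0.074, 0.11 and 0.18, while the slope stayed between -1.96 and -1.45. It was also lost with quantile normalization (adjusted p = 0.057), with arrays centred on their medians (adjusted p = 0.051) and with no filter (adjusted p = 0.22). With values below the 40th percentile set to it the slope was -0.94 ± 0.21 (adjusted p = 0.10). As the mean of 5 progesterone arrays minus 0 h, Cxcl14 differed by -0.98 ± 0.41 (adjusted p = 0.24), or by -1.20 ± 0.21 without the 6 h array (adjusted p = 0.0072).

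Cxcl1, a CXC ligand that draws in neutrophils, stayed low. Probe set 95348_at read 5.93, 5.96, 6.20, 6.09, 6.00 and 6.09 at 0, 6, 12, 15, 18 and 24 h, all below the 40th percentile, and probe set 95349_g_at was at the lower limit on all 6 arrays. The range of 0.27 on the first came with no test, since neither probe set passed the filter.

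The CX3C ligand Cx3cl1 is made as a membrane protein that the proteases Adam10 and Adam17 shed, and its receptor Cx3cr1 marks monocytes and macrophages. Its probe set 98008_at read 8.41 at 0 h and then 8.08, 7.88, 7.73, 7.34 and 7.47 at 6, 12, 15, 18 and 24 h. The values were lower at each time than at the one before up to 18 h, where the level was 47.6% of that at 0 h, and 24 h lay 0.13 above 18 h. The slope was -1.04 ± 0.18 per 24 h over 0 to 24 h (limma, adjusted p = 0.054) and -0.95 ± 0.25 over 6 to 24 h (adjusted p = 0.064), and neither passed the threshold of 0.05. Without 24 h they were -1.29 ± 0.22 (adjusted p = 0.038) and -1.38 ± 0.34 (adjusted p = 0.037), and with arrays centred on their medians -1.03 ± 0.17 (adjusted p = 0.049) and -0.95 ± 0.23 (adjusted p = 0.046). The mean of the progesterone arrays minus 0 h was -0.71 ± 0.25 (adjusted p = 0.17), or -0.81 ± 0.19 without 6 h (adjusted p = 0.028).

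The second Cx3cl1 probe set, 161752_r_at, lay close to the 40th percentile. It read 6.68, 6.40, 6.79, 6.39, 6.30 and 6.26 at 0, 6, 12, 15, 18 and 24 h, with the highest value at 12 h. Its slope over 0 to 24 h was -0.39 ± 0.24 (limma, adjusted p = 0.48). The r in its name marks a probe set for which Affymetrix relaxed its probe selection rules.

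The CC ligands Ccl2, Ccl7, Ccl11 and Ccl8 attract monocytes and eosinophils and are neighbours on mouse chromosome 11, with 4 annotated genes between Ccl2 and Ccl8 in GRCm38.p6, Ccl12 among them. The values of these neighbours did not share 1 pattern. Ccl8, a monocyte chemoattractant that in the mouse signals through Ccr8, read 8.69 at 0 h and then 8.08, 8.17, 8.08, 8.26 and 8.59 at 6, 12, 15, 18 and 24 h. It was lower at 6 to 15 h, at 65.3% to 69.8% of the 0 h level, and at 24 h stood at 93.2% of it. The difference of the 5 progesterone arrays from 0 h was -0.46 ± 0.20 (limma, adjusted p = 0.25). The slope over 6 to 24 h was 0.65 ± 0.22 per 24 h (adjusted p = 0.13), or 0.28 ± 0.32 without 24 h, and the slope with 0 h included was -0.05 ± 0.29 (adjusted p = 0.95).

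Ccl11, also called eotaxin, draws eosinophils through the receptor Ccr3. It read 7.49, 7.52, 7.33, 7.31, 7.44 and 7.01 at 0, 6, 12, 15, 18 and 24 h, so that 24 h was lowest at 71.8% of 0 h and the 0 h value lay within the range of the progesterone arrays. Its difference from 0 h was -0.17 ± 0.19 (limma, adjusted p = 0.69) and its slope over 0 to 24 h was -0.41 ± 0.18 (adjusted p = 0.29). Ccl2, the main ligand of Ccr2 on monocytes, was at the lower limit on 5 arrays and read 5.48 at 24 h. Ccl7, another ligand of Ccr2, was at the lower limit on all 6. No fold change can be given for either, and a change below the limit was not detectable.

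Set against all analysed probe sets, the 8 chemokine probe sets lay on the low side of 0 h. The median difference from 0 h was -0.23, -0.40, -0.45, -0.41 and -0.49 at 6, 12, 15, 18 and 24 h, while the median of all analysed probe sets was -0.06, 0.04, 0.03, -0.04 and 0.01. The number lower than 0 h was 7 of 8 at 6 and 12 h and 8 of 8 at 15, 18 and 24 h, against 59.3%, 45.1%, 46.1%, 56.1% and 49.1% of all analysed probe sets. At 6 of the 8 the 0 h value was above all 5 progesterone values, which held for 27.2% of all analysed probe sets, and at 0 of the 8 it was below them, against 22% (percent of all analysed). These counts describe probe sets that share genes and a 0 h array, and those that failed the filter are not in them. Cxcl14 passed the filter only through 0 and 6 h and Cx3cl1 161752_r_at only through 0 and 12 h, where they are high. In these counts and those that follow, that favours lower values on the other arrays.

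At least 2-fold lower than 0 h were 0, 0, 1, 2 and 1 of the 8 at 6, 12, 15, 18 and 24 h, against 1.2%, 1.93%, 1.84%, 2.04% and 1.61% of all analysed probe sets. The probe set at 15 and 24 h was Cxcl14, and at 18 h Cxcl14 and Cx3cl1. At least 2-fold higher were 0 of the 8 at each of these times, against 1.58%, 2.32%, 2.54%, 1.52% and 1.35% of all. At 24 h 0.584% of analysed probe sets were lower relative to 0 h than Cxcl14, 1.88% lower than Cx3cl1 (98008_at) and 1.97% lower than Cxcl12 (160511_at). Ccl8 had 5.47% below it at 6 h and 34.6% at 24 h.

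**Figure D2:**
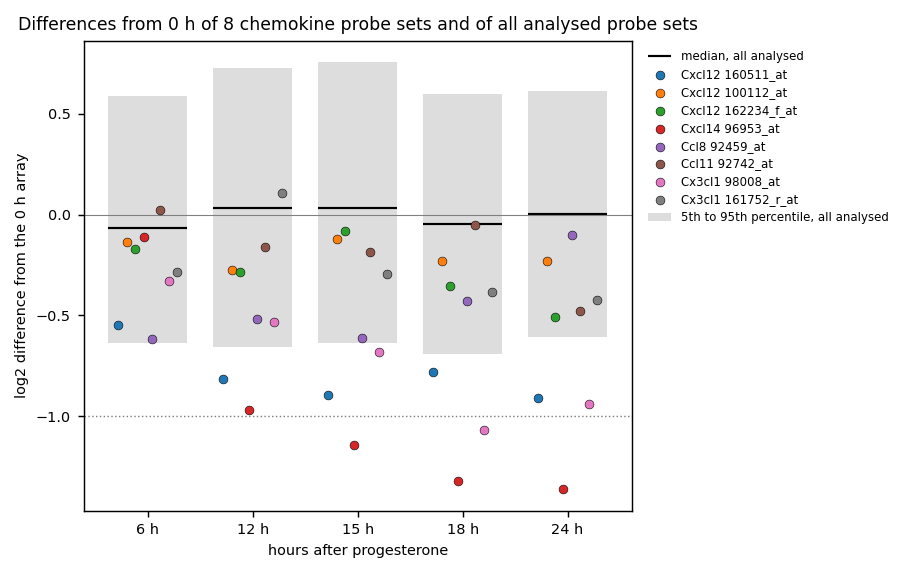
Log2 difference from the 0 h array (y axis) at each time after progesterone (x axis) for the 8 analysed chemokine probe sets (coloured points). Grey bars run from the 5th to the 95th percentile of all analysed probe sets, black lines are their medians and the dotted line is a 2-fold drop. Cxcl14 lies below the grey bar from 12 h on, Cxcl12 (160511_at) does so too, and Ccl8 returns towards 0 at 24 h.

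Of the 8, 1 fell and 0 rose against 0 h at an adjusted p under 0.05, where 1.71% of 7724 probe sets fell and 1.22% rose. Over 0 to 24 h 1 fell and 0 rose, against 0.31% and 0.375% of 7731. Over 6 to 24 h 0 fell and 0 rose, against 1.66% and 2.03% of 7729. At an unadjusted p under 0.05 in limma, 4, 5 and 3 of the 8 were lower in these fits, against 10.2%, 7.76% and 9.91% of all, and 0, 0 and 1 (Ccl8) were higher, against 9.13%, 8.95% and 11.8%.

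**Figure D3:**
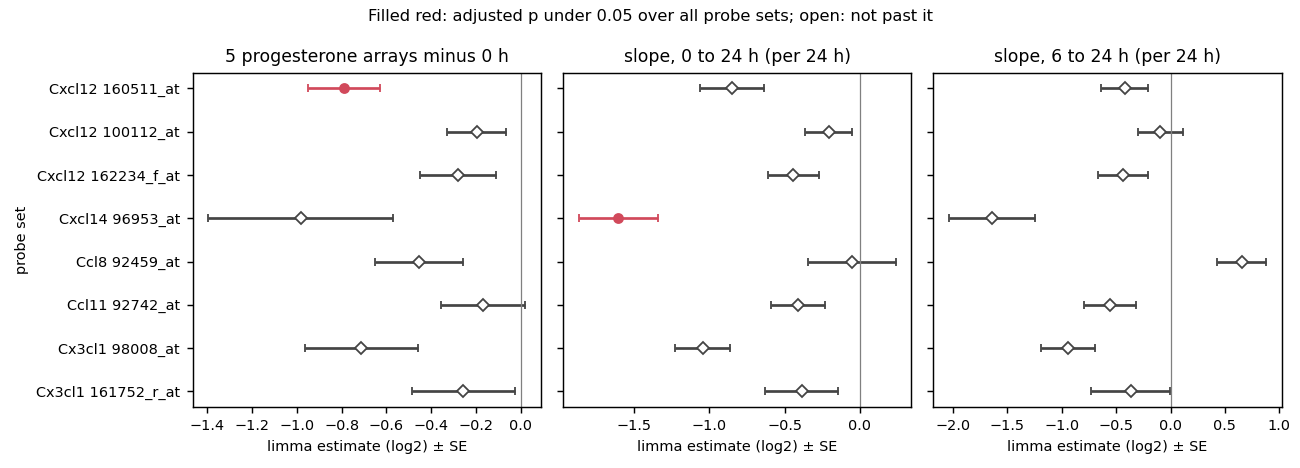
Limma estimates with SE (x axes, log2) for the 8 analysed chemokine probe sets (rows) in 3 fits: the 5 progesterone arrays minus 0 h, the slope over 0 to 24 h and the slope over 6 to 24 h, both per 24 h. Filled red points passed an adjusted p under 0.05 over all probe sets, which are Cxcl12 160511_at in the first fit and Cxcl14 in the second.

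Among the receptors, 18 of 22 listed genes were on the array and 6 were analysed; 0 of these rose or fell in any of the 3 fits. Cxcr4 and Ackr3, the receptors of Cxcl12, are given as such, chosen after their values were seen. Cxcr4 read 7.67 at 0 h, was at the lower limit at 6, 12, 18 and 24 h and read 5.67 at 15 h. It was thus above the limit by more than 1 log2 unit on the 0 h array only, with a difference of -2.28 or beyond at the 4 times at the limit. Being above the 40th percentile on the 0 h array only, it was not tested. Ackr3, which scavenges Cxcl12, read 6.93, 6.75, 6.19, 6.17, 6.02 and 6.01 at 0, 6, 12, 15, 18 and 24 h. Its slope over 0 to 24 h was -1.04 ± 0.23 (limma, adjusted p = 0.085). Ackr3 passed the filter only through the 0 and 6 h arrays, where it is high, and that filter favours a fall.

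Cx3cr1 read 8.58, 8.29, 8.34, 8.38, 8.35 and 8.50 at these times, with the highest value at 0 h, and its slope over 0 to 24 h was -0.04 ± 0.17 (limma, adjusted p = 0.93). Ccr2 read 8.20, 7.55, 7.25, 7.43, 7.50 and 7.80, so that it was lowest at 12 h, with a difference of the progesterone arrays from 0 h of -0.69 ± 0.19 (adjusted p = 0.087). Ccr3 lay between 5.94 and 6.54, below the 40th percentile on every array, and Ccr8 was at the lower limit on all 6. The proteases that shed Cx3cl1 did not pass either; Adam10 read 8.13 to 8.55 and Adam17 6.57 to 7.07. Of 9 genes of chemokine-cutting or shedding proteases, 7 were analysed and 0 rose or fell. Dpp4, which clips Cxcl12, read 7.48 at 0 h and 6.69 to 7.13 afterwards.

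**Figure D4:**
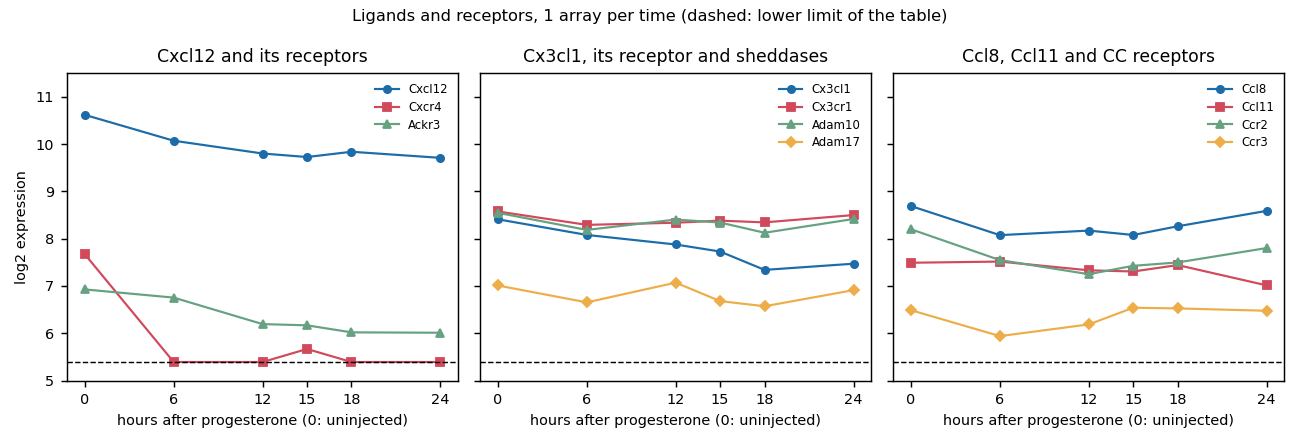
Log2 expression (y axes) of chemokines and their receptors or sheddases against hours after progesterone (x axes, 0 is uninjected), 1 point per array; the dashed line is the lower limit of the table. Cxcl12 is shown by 160511_at and Cx3cl1 by 98008_at. Cxcr4 is at the limit at 6 h, against 7.67 at 0 h, Cx3cr1 stays between 8.29 and 8.58, and both Ccl8 and Ccr2 are lower at 6 to 18 h than at 0 and 24 h.

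Of 28 other chemokine genes listed, 17 were on the array and 5 were analysed, with 0 called in any fit. Ccl22 read 8.42 to 8.64, Xcl1 8.03 to 8.44, Ccl6 7.37 to 7.91 and Ccl12, next to Ccl8 on the chromosome, 6.68 to 7.09. The list's median difference from 0 h was -0.02 to 0.25. Ccl4, Ccl25, Cxcl2, Cxcl5, Cxcl9, Cxcl10 and Cxcl13 were at the lower limit on all 6 arrays.

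Of 12 analysed genes of NF-kappaB and inflammatory cytokine signalling, 1 rose against 0 h, 0 were called over 0 to 24 h and 3 fell over 6 to 24 h. Myd88, the adaptor of Toll-like and interleukin-1 receptors, rose by 1.93 ± 0.37 (limma, adjusted p = 0.033), a call lost without 12 or 15 h (adjusted p up to 0.098). Over 6 to 24 h the transcription factor gene Fos fell by 2.13 ± 0.35 on the log2 scale per 24 h and Cebpb, another, also fell, with 8.90 at 6 h and 8.05, 7.70, 7.56 and 7.39 at 12, 15, 18 and 24 h (limma, adjusted p = 0.018 and 0.013). Both calls were lost without 6 h (adjusted p = 0.21 and 0.13). Fos read 6.19 at 0 h and 7.93, 7.15, 6.81, 6.39 and 6.41 at 6, 12, 15, 18 and 24 h, above 0 h throughout. It passed the filter only through the 6, 12 and 15 h arrays, where it is high, which favours a fall over 6 to 24 h. A second Fos probe set was at the lower limit on all 6 arrays. Cebpb read 8.53 at 0 h. The interleukin-1 receptor gene Il1r1 fell by 1.10 ± 0.24 (limma, adjusted p = 0.038), a call lost without 6, 12, 15 or 18 h (adjusted p up to 0.28). Il1b was at the lower limit on all 6 arrays. Of 3 analysed genes of the type 2 cytokine pathway, known for inducing Ccl11, the decoy receptor Il13ra2 rose by 1.97 ± 0.21 (limma, adjusted p = 0.006). Its 0 h value was at the lower limit, so this size depends on the limit, and it passed the filter only through progesterone arrays. Il4ra, which carries the signal, read 9.11 at 0 h and 8.63 to 8.81 afterwards, and Il5 was at the limit throughout. Of 4 analysed leukocyte adhesion genes, 0 were called in any fit.

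Markers of other cells in the horn moved on the same arrays. For 9 uterine epithelium markers, the summed linear level was 7125 to 8260 on progesterone arrays and 9292 at 0 h, and of 8 analysed 2 fell against 0 h. Epcam fell by 1.12 ± 0.16 and Krt18 fell by 1.03 ± 0.17 (limma, adjusted p = 0.013 and 0.021). The call of Krt18 was lost without 12 or 15 h (adjusted p up to 0.069). Of the rest, Krt8, Krt19, Cdh1 and Muc1 read lower than 0 h on all 5 progesterone arrays and did not pass. Their differences were -0.43 to -0.18, -0.77 to -0.39, -0.44 to -0.05 and -0.78 to -0.34. Cldn3 and Cldn4 did not pass either and went the other way. Cldn3 was higher than 0 h by 0.26 to 0.56 on all 5 progesterone arrays (limma, adjusted p = 0.12). Cldn4 was higher on 4 of 5. The median difference of the epithelium list from 0 h was -0.48 to -0.30. For 8 endothelium markers the sum was 2543 to 2901 with progesterone and 3570 at 0 h, and 1 of 7 analysed, Cldn5, fell by 1.29 ± 0.17 (limma, adjusted p = 0.011). The median difference of this list from 0 h was -0.26 to 0.04. Vwf read lower than 0 h on all 5 progesterone arrays on the probe set used (-0.68 to -0.32). A second analysed Vwf probe set, at a lower level, read higher on all 5 (0.24 to 0.59). That probe set passed the filter only through 18 and 24 h, where it is high. Kdr read higher at 6, 12, 15 and 24 h (0.20 to 0.50) and lower at 18 h (-0.56). Tek and, on the probe set used, Tie1 read higher at 18 and 24 h. A second analysed Tie1 probe set read lower than 0 h on all 5 progesterone arrays (-0.42 to -0.08). The sum of 8 stroma markers was 13996 to 20095 with progesterone and 14890 at 0 h, and 3 of 7 analysed rose over 0 to 24 h, Col3a1, Col1a1 and Col1a2. These calls were lost without 6, 12, 15 or 18 h for Col3a1, without 6, 15 or 18 h for Col1a1 and without any 1 of the 5 progesterone arrays for Col1a2. A second Col1a2 probe set did not pass (slope -0.11 ± 0.16). A second Col3a1 probe set kept its call whichever array was left out (slope 2.32 ± 0.19, limma, adjusted p = 0.010, at most 0.037). Another lost it without 6, 15 or 18 h, as did a second Col1a1 probe set. Over 6 to 24 h the Col1a2 probe set used kept its call whichever array was left out (limma, adjusted p up to 0.039). Those used for Col1a1 and Col3a1 lost theirs there without 6 h, and Col3a1 also without 15 or 18 h. Over 6 to 24 h Lum, of the matrix, rose as well (limma, adjusted p = 0.0063, and 0.053 without 6 h), though it read below 0 h from 6 to 18 h. Other stroma markers read lower than 0 h on all 5 progesterone arrays, Thy1 by -0.82 to -0.28 and Dcn by -0.40 to -0.02, and did not pass. Sums were 12597 to 18166 with progesterone and 13543 at 0 h for 6 smooth muscle markers, of which Cnn1 rose over 6 to 24 h (limma, adjusted p = 0.045, lost without 6, 12, 15 or 18 h), 950 to 1338 with progesterone and 1920 at 0 h for 4 adipocyte markers, and 395 to 559 with progesterone and 599 at 0 h for 3 mesothelium markers. The part of these cells in the lower Cxcl12, Cxcl14 and Cx3cl1 values was not tested.

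Summed leukocyte markers on the progesterone arrays lay around or below the 0 h sum. The summed level of 9 macrophage markers was 2567 to 3060 on progesterone arrays and 2969 at 0 h, with Adgre1 and Itgam at the lower limit on all 6 arrays and 0 of 6 analysed called. Of 4 eosinophil markers 0 were analysed, and the sum was 213 to 236 with progesterone and 232 at 0 h, with Il5ra at the limit. Of 9 neutrophil markers S100a9, Ly6g and Cxcr2 were at the limit on all 6, and the sum was 1727 to 2087 with progesterone and 1887 at 0 h. Among the 4 analysed, Lcn2, which epithelium also makes, fell by 4.32 ± 0.54 per 24 h over 6 to 24 h (limma, adjusted p = 0.0068, and 0.072 without 6 h). Lcn2 read 7.63 at 0 h and 8.77, 7.87, 6.87, 5.84 and 5.85 at 6, 12, 15, 18 and 24 h, so that the slope starts from its highest value. It passed the filter only through the arrays from 0 to 15 h, where it is high, which favours a fall. Another Lcn2 probe set, not analysed, was also highest at 6 h (7.15). Its differences from 0 h at 18 and 24 h were -0.02 and -0.13, against -1.78 at both times on the probe set used. Sums were 986 to 1059 with progesterone and 1086 at 0 h for 9 T and NK cell markers, with Cd3g and Ncr1 at the limit, 693 to 823 with progesterone and 829 at 0 h for 7 mast cell markers, with Mcpt4, Fcer1a and Ms4a2 at the limit, and 441 to 517 with progesterone and 552 at 0 h for 3 B cell markers, with Cd79b at the limit. The part of leukocytes in the values of Ccl8 and Ccr2 was not tested.

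For the probe sets that ranged over at least 1 log2 unit, the genes with the closest pattern over the 6 arrays were sought among 560 such probe sets of other genes. Nearest to Cxcl14 were Egfbp2, of the kallikrein family with its near-identical copies, Acss1, a mitochondrial acetyl-CoA synthetase, and Adamdec1, a metalloprotease, with Pearson's r of 0.987, 0.987 and 0.986. Acss1 read 8.60 and 8.66 at 0 and 6 h and 7.57 to 7.87 afterwards, while Egfbp2 and Adamdec1 reached the lower limit at 15 and 24 h. Nearest to Cx3cl1 (98008_at) were Krt7, a keratin of simple epithelium, Bex1 and Aldh1a1, a retinaldehyde dehydrogenase, with r of 0.986, 0.981 and 0.977. Krt7 read 8.85 at 0 h and had 7.39 and 7.51 at 18 and 24 h, with its low point at the same time as Cx3cl1. With 6 points that share a 0 h array, 27 probe sets had r over 0.95 with Cxcl14 and 9 with Cx3cl1, so these likenesses are descriptions.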

How the data were processed

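The deposited table holds log2 expression per probe set of 6 Affymetrix arrays; per the labels' protocols, samples were prepared and hybridized as the array maker advises, with software, background correction and normalization not given in the sources used here. Base 2 was taken because 99.7% of the values, back-transformed with it, have at most 4 decimals (10.2% with base e). Trimmed means of the arrays lay within -4.12% to 3.44% of their median, so values were used as deposited. Of 12487 probe sets, 65 controls were left out, and 121 missing values stayed missing. Of the rest, 10833 had 1 gene symbol, 396 several and 1193 none; 10817 were matched to current gene identifiers and 0 symbols changed.

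Groups came from the sample titles. Limma 3.58.1 (lmFit and eBayes with an intensity trend, R 4.3.3) was fitted to all analysed probe sets, with 4 residual degrees of freedom for 6 arrays and 3 for the 5 progesterone arrays, Benjamini-Hochberg adjustment over all of them and a threshold of 0.05; "rose" and "fell" mark calls. The fits were tested on simulated data. Lists report 1 probe set per gene, that with the highest mean, and name other probe sets of some genes where these differed. Listed genes were named if called, or among the 4 with the highest mean otherwise. Other receptors of a described ligand, Muc1 and some listed genes that went another way were added after their values were seen. Members, lists and tests were chosen with earlier results of these data known. P-values measure the spread between times. Alternatives were a higher floor, other filters, quantile or median scaling, no intensity trend, a 1.5-fold threshold and each array left out.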

Additional observations from a re-analysis of the deposited data

How the results depend on the processing

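No paired analysis was possible because each time has 1 array and the labels give no replicate numbers. Only the first fit needs the 0 h array, which could not be left out of it. Of 290 alternative limma estimates of the 8 chemokine probe sets, 262 kept their direction and side of the threshold, 16 were no longer called, 11 became called, and 1 changed sign, Ccl8 over 0 to 24 h, between -0.53 without 24 h and 0.65 without the 0 h array. Of 120 alternative differences at single times, 0 changed sign among those of 2-fold or more and 5 moved by more than the SD over progesterone times.

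Against 0 h, the 1 chemokine probe set that fell became 0 with no filter, quantile normalization or arrays centred on their medians, and 0 to 3 with an array left out. Over 0 to 24 h the 1 became 0 with values floored at the 40th percentile, no filter, the filter on all arrays or quantile normalization, and 0 to 2 with an array left out. With arrays centred on their medians it was again 1, but Cx3cl1 (98008_at) in place of Cxcl14. Over 6 to 24 h the 0 became 1 with the filter on at least 1 array (added after seeing the data), quantile normalization or no intensity trend, 2 with arrays centred on their medians, and 0 to 2 with an array left out. The 0 at least 2-fold lower at 6 h became 1 at 1.5-fold. At 12 h it became 1 with quantile normalization or median centring and 2 at 1.5-fold. The 1 at 15 h became 0 with the floor and 4 at 1.5-fold, the 2 at 18 h became 1 with the floor, and the 1 at 24 h became 0 with the floor and 3 at 1.5-fold. The floor lies above the Cxcl14 values from 12 h on.

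Over all probe sets, 94 rose and 132 fell against 0 h; 19 rose and 148 fell with no filter, and with an array left out 22 to 498 rose and 27 to 492 fell, the highest counts without 6 h. Over 0 to 24 h 29 rose and 24 fell, against 15 and 9 with the floor, 0 and 0 with no filter (limma; 1483 at an unadjusted p under 0.05), 13 and 14 with the filter on all arrays, and 12 falling with quantile normalization; with an array left out 1 to 157 rose and 0 to 128 fell, the highest counts without 0 h, and without 24 h 53 rose and 87 fell. Over 6 to 24 h 157 rose and 128 fell, against 79 and 68 with the floor, 0 and 0 with no filter (limma; 1789 at an unadjusted p under 0.05), 238 falling with quantile normalization and 199 with median centring; with an array left out 28 to 223 rose and 14 to 227 fell. Among the scalings, the split of rising against falling calls moved by over 10 points with median centring, to 126 and 112 against 0 h and to 35 and 18 over 0 to 24 h. The causes of these shifts were not tested. Each value rests on 1 array, so the number of arrays limits precision, and nothing below the lower limit can be ordered.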
